A study of Mus musculus with 20 samples.

Results

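The 9 genes described here encode the interleukins IL-23, IL-17 and IL-22, their receptors and a pair of antimicrobial lectins induced by IL-22. They were chosen by name, as Il23a, Il17a, Il17f, Il22, Il22ra1, Il22ra2, Il17ra, Reg3b and Reg3g. All 9 were present among the 32991 genes of the 20 libraries. Each library came from the colon of 1 male C57BL/6 mouse, whose age was not given, with 5 mice in each of 4 groups. Control mice received double distilled water by gavage for 91 days, and PZH mice received 250 mg/kg/d of PZH (Pien Tze Huang), a Chinese herbal and animal drug formula, over the same time. AOM/DSS mice (labelled Model) received the water and 1 injection of 12.5 mg/kg azoxymethane (AOM), a carcinogen, followed by 4 cycles of 2% dextran sulfate sodium (DSS) in the drinking water, which injures the colon lining. PZH + AOM/DSS mice (labelled Model + PZH) received both. The pieces were whole tissue and neither the labels nor the methods say how much tumor each held, so fewer cells of a type and less RNA per cell cannot be told apart.

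IL-23 is secreted by dendritic cells and macrophages and is made of the Il23a product joined to a subunit that it shares with IL-12. It maintains T helper 17 cells, gamma delta T cells and type 3 innate lymphoid cells, which release IL-17A, IL-17F and IL-22. IL-17A and IL-17F act through a receptor with the Il17ra product and draw in neutrophils, while IL-22 signals through the Il22ra1 product and STAT3 in epithelial cells, where it raises Reg3b and Reg3g.

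The measure was FPKM, the fragments of a transcript scaled by its length and by the depth of the library, summed over the Ensembl transcripts of each gene. Depth was estimated at 15.3 to 19.4 M fragments per mouse (median 16.88). All 10 colon marker genes were above 0 in each group, with summed levels of 4364 to 7731 FPKM in Control mice, 4483 to 7682 in PZH mice, 2537 to 4932 in AOM/DSS mice and 1836 to 7354 in PZH + AOM/DSS mice. The labels' extraction text names another tissue, the abdominal aorta, and 10 of 10 muscle and vessel genes were also above 0, with summed levels of 2279 to 5213 FPKM in Control mice and 1026 to 1758 in AOM/DSS mice. A value of 0 in these files was not proof of absence. The epithelial gene Epcam was listed at 0 in 13 of 20 mice and reached 865 FPKM in another, and Gapdh ranged from 1.56 to 79.5 FPKM, while 22252 transcripts assembled from the reads carried no gene name and entered no gene.

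Reg3b and Reg3g are neighbouring paralogs on chromosome 6 of GRCm38, the assembly also called mm10. Reg3b (ENSMUSG00000071356.7) runs from 78370657 to 78373466 on the plus strand and Reg3g (ENSMUSG00000030017.2) from 78466269 to 78468872 on the minus strand, with 92802 bases between them. Their promoters are shown because both genes were near 0 without AOM/DSS and at up to 140 and 198 FPKM with it, yet not always in the same mice. The sequences are RefSeq's for GRCm38.p6, from 250 bases before the transcript start to 50 bases after it, chr6:78370635-78370934 on the plus strand and chr6:78468825-78469124 on the minus strand. For Reg3b the RefSeq start lies downstream of the Ensembl gene start given above. Most of the Reg3b window, with its marked match, thus lies inside the gene as Ensembl draws it. The capitals mark a match to the STAT motif TTCNNNGAA.
Reg3b: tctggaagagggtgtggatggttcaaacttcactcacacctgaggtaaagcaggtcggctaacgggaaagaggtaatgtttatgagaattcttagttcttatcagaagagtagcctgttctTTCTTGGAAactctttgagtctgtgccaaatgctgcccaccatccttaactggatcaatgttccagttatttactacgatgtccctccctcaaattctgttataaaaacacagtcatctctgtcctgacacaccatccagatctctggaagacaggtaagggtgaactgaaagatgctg
Reg3g: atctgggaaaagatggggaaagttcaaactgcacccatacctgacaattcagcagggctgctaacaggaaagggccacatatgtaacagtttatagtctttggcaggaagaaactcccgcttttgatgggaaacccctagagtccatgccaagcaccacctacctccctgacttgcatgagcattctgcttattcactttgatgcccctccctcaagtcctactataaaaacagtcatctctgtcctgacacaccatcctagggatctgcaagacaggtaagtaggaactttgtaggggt
Both strands were searched for TTCNNNGAA, the ROR motif TAGGTCA, the NF-kB motif GGANTTTCC and the C/EBP motif TTGCNNAA. The Reg3b window held 1 match, to the STAT motif, at position -129 from the RefSeq start. The Reg3g window held no match to any of these 4 strings. Other forms of the same binding sites were not searched for, so their absence was not shown. Among 32851 promoter windows of the same length, 8.30% held the STAT motif, 2.61% the ROR motif, 1.25% the NF-kB motif and 10.8% the C/EBP motif. Aligned to each other, the Reg3 promoters were identical at 207 of 296 positions (69.9%).

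The first comparison asked what AOM/DSS did without PZH. Il23a, Il17a, Reg3b and Reg3g were raised by AOM/DSS over Control, and the 3 receptor genes, Il17f and Il22 did not pass the test. Over all genes, 3739 of 15812 (23.6%) were called at an adjusted p under 0.05 by limma with Benjamini-Hochberg adjustment, and the 2 groups did not overlap in 18.4%. Of the 3739 called genes, 2596 were higher and 1143 lower in AOM/DSS mice. Genes under 0.5 FPKM in 6 or more of the 10 mice stayed out of the fit. Of the 9 genes, 5 entered it, Il23a and Reg3g only through the AOM/DSS mice, and the other 4 were compared by exact permutation (two-sided), which cannot give a p below 0.00794.

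Il23a (chromosome 10, 128296139 to 128298752, minus strand) encodes the subunit particular to IL-23. It was at 0.09, 0.241, 0.246, 0.046 and 0 FPKM in Control mice 17, 37, 41, 48 and 50 and at 5.75, 3.26, 3.14, 8.24 and 7.32 FPKM in AOM/DSS mice 23, 30, 33, 44 and 52. Every AOM/DSS mouse lay more than 10 times above the highest Control mouse. The log2 difference was 2.47 (SE 0.23, limma adjusted p = 5.02e-05), on the log2(FPKM + 1) scale, which understates changes from low levels; with 0.1 added in place of 1 it was 4.71. Leaving out any mouse gave limma adjusted p-values from 4.88e-05 to 2.77e-04. The coding transcript, Il23a-201, made up 95.3% of the mean level. Its partner Il12b, which encodes the subunit shared with IL-12, had a median of 0.060 FPKM (0.031 to 0.253) in Control and 0.339 FPKM (0.114 to 0.403) in AOM/DSS mice, too low to enter the fit.

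**Figure D1:**
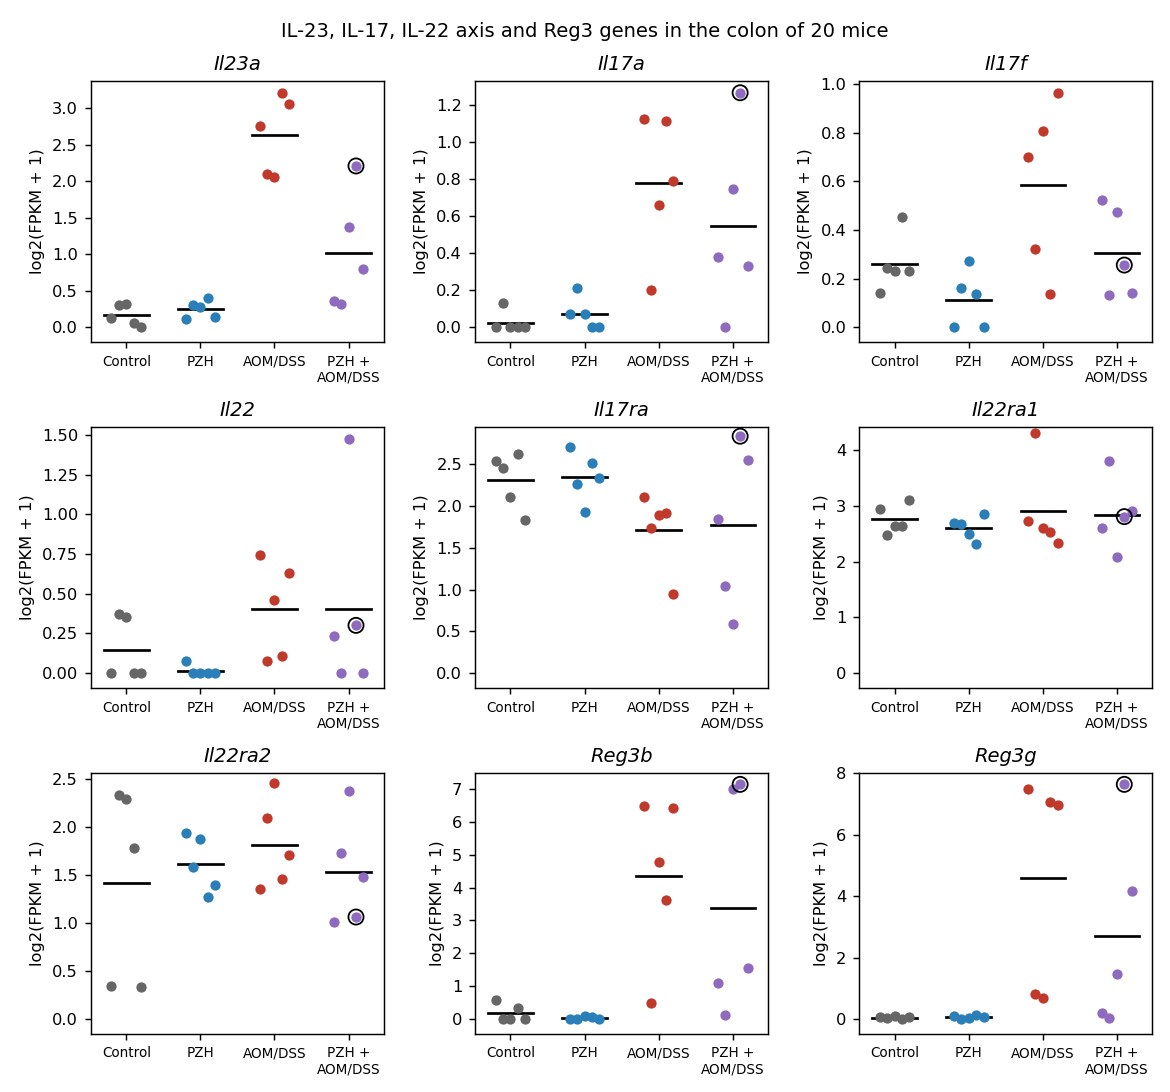
Each panel plots 1 gene as log2(FPKM + 1) for every mouse, with 5 mice per group, a bar at the group mean and a ring around PZH + AOM/DSS mouse 35. Il23a was at 3.14 FPKM or more in the 5 AOM/DSS mice and mouse 35 and at 1.58 FPKM or less in the other 14, while Reg3b and Reg3g split the mice of both AOM/DSS groups into high and low.

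Il17a and Il17f are neighbours on chromosome 1 (20730905 to 20734496 and 20777146 to 20790617, with 42649 bases between them), and their products form homodimers and a heterodimer. Il17a was listed at 0 in 4 Control mice and at 0.093 FPKM in mouse 37, against 1.18, 0.152, 0.578, 1.17 and 0.727 FPKM in the AOM/DSS mice in the order above. The groups did not overlap, and the log2 difference of 0.75 gave p = 0.00794 in the exact permutation test, its smallest value; with 0.1 added the difference was 2.71. In estimated fragments this was 0 to 2 in Control and 3 to 23.5 in AOM/DSS mice.

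Il17f had a median of 0.175 FPKM (0.104 to 0.370) in Control and 0.624 FPKM (0.101 to 0.951) in AOM/DSS mice, and these ranges overlapped (exact permutation p = 0.111). Its mean level came 55.9% from the coding transcript and 44.1% from a transcript with a retained intron. Il22 (chromosome 10, 118204942 to 118210047) was listed at 0 in 3 Control mice and at 0.296 and 0.278 FPKM in mice 37 and 41. In the AOM/DSS mice it was at 0.676, 0.053, 0.375, 0.08 and 0.55 FPKM, of which 3 lay above every Control mouse (exact permutation p = 0.143). Both cytokines thus stayed under 1 FPKM in all 10 mice, at which level the depth leaves few fragments per mouse.

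The receptors were the most abundant of the 9 genes in Control mice. Il22ra1 (chromosome 4, 135728172 to 135752140), the IL-22 receptor chain of epithelium, was at 5.88 ± 1.27 FPKM (SD, n = 5) in Control mice. In AOM/DSS mice it was at 5.65, 18.8, 5.09, 4.80 and 4.07 FPKM, so that mouse 30 alone lay above the Control range. The log2 difference was 0.14 (SE 0.34, 95% interval -0.60 to 0.88, limma adjusted p = 0.80) and turned to -0.21 without mouse 30. Il22ra2 (chromosome 10, 19621998 to 19634681) encodes a soluble decoy that binds IL-22. It was at 2.18 ± 1.87 FPKM in the Control group and 2.67 ± 1.22 FPKM in the AOM/DSS group (SD, n = 5 each; limma adjusted p = 0.562).

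Il17ra (chromosome 6, 120463247 to 120487559) was at 4.06 ± 1.10 FPKM in the Control group and 2.41 ± 0.89 FPKM in the AOM/DSS group (SD, n = 5 each), a log2 difference of -0.59 (SE 0.24, 95% interval -1.11 to -0.07) that did not pass the adjusted test (limma adjusted p = 0.0956). This sum was mostly 1 transcript. Il17ra-203, which has a retained intron, made up 88.6% of the mean, and the coding transcript Il17ra-201 made up 11.1%. The coding transcript went the other way, at 0.077, 0.072, 0.295, 0.068 and 0.533 FPKM in Control and 0.629, 0.801, 0.431, 0.444 and 0.685 FPKM in AOM/DSS mice. Only Control mouse 50 lay within the AOM/DSS range for this transcript, and its difference was not tested.

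Reg3b and Reg3g encode C-type lectins that kill bacteria at the gut surface. Reg3b was at 0.487, 0, 0, 0.273 and 0 FPKM in the Control mice and at 88.4, 0.392, 26.2, 11.4 and 85.2 FPKM in AOM/DSS mice 23, 30, 33, 44 and 52. Mouse 30 lay within the Control range and the other 4 lay far above it (log2 difference 4.17, exact permutation p = 0.0159; 6.45 with 0.1 added). Reg3g did not exceed 0.062 FPKM in Control mice and was at 176, 0.769, 0.604, 132 and 123 FPKM in the AOM/DSS mice. The groups did not overlap, but mice 30 and 33 were more than 100 times below the other 3. The log2 difference of Reg3g was 4.55 (SE 1.36, limma adjusted p = 0.0337; 7.09 with 0.1 added). This call was lost when any Control mouse or any of AOM/DSS mice 23, 44 and 52 was left out, with limma adjusted p-values from 0.0584 to 0.0806, and it held without mouse 30 (0.0107) or mouse 33 (0.00974). Without the filter on low values it was also lost (limma adjusted p = 0.066).

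The transcripts of Reg3g showed where mice 30 and 33 differed. The coding transcript Reg3g-201 was listed at 0 in all 10 mice without AOM/DSS, at 0.0192 and 0 FPKM in mice 30 and 33 and at 122 to 176 FPKM in the other AOM/DSS mice. The other annotated form, Reg3g-202, which has a retained intron, lay between 0 and 0.0912 FPKM in the mice without AOM/DSS. In the 5 AOM/DSS mice it was at 0.374, 0.75, 0.604, 1.08 and 0.747 FPKM, so mice 30 and 33 were within the range of the other 3. Mouse 33 also had Reg3b at 26.2 FPKM. PZH + AOM/DSS mouse 15 was alike, with Reg3b at 127 FPKM, Reg3g-202 at 1.74 FPKM, the highest of all mice, and Reg3g-201 listed at 0. PZH + AOM/DSS mice 2 and 13 also had Reg3g-201 listed at 0, with Reg3g-202 at 0.139 and 0.0137 FPKM. Whether fragments were split between Reg3g and its paralog Reg3b was not tested. It was also not tested whether fragments of the coding form went to assembled transcripts without a gene name. A listed 0 of Reg3g-201 was thus not proof of absence in these mice.

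**Figure D2:**
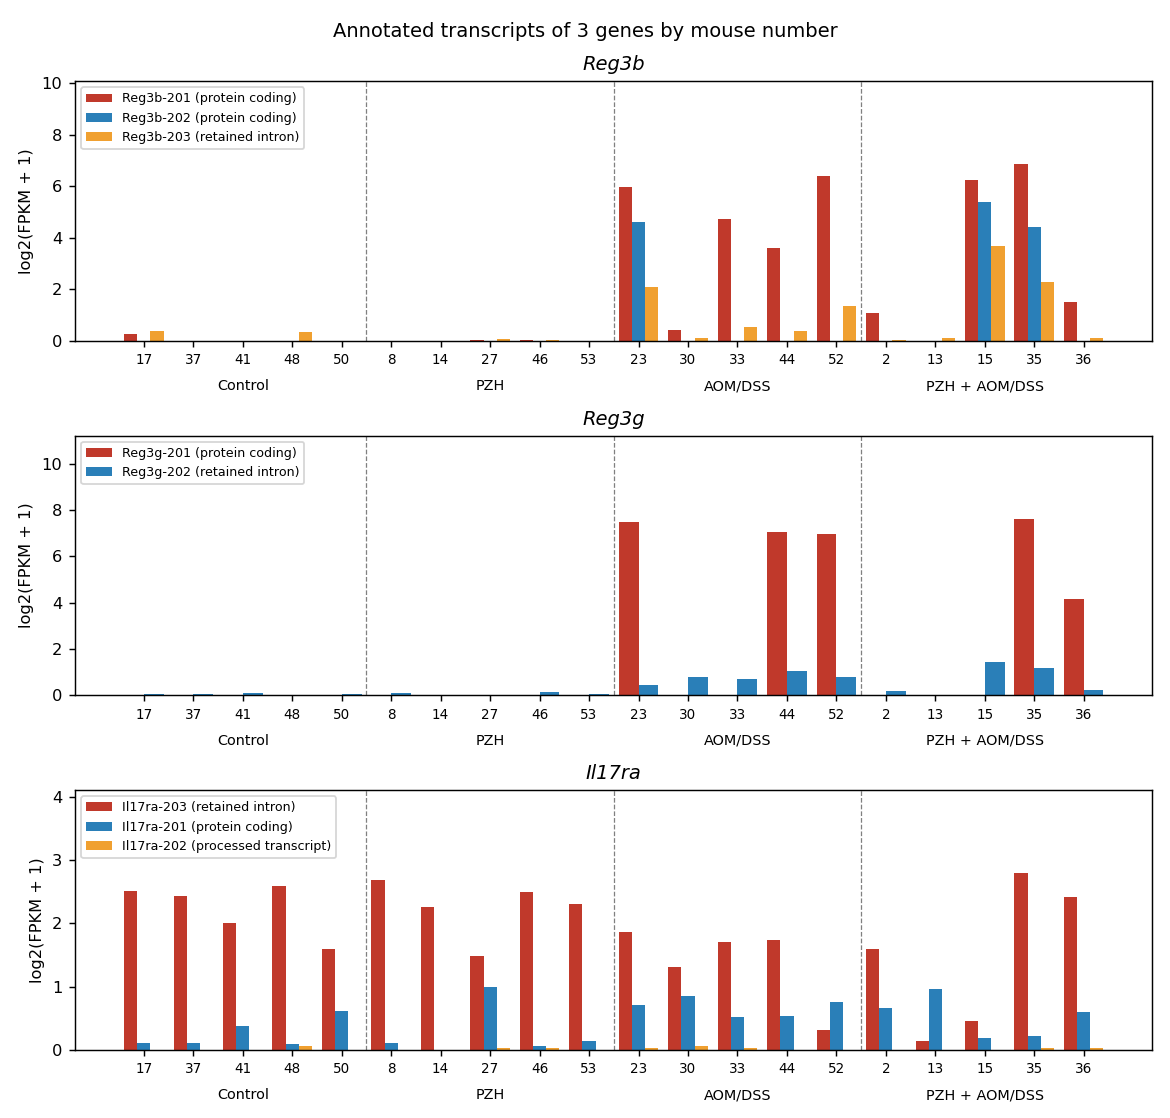
Bars give log2(FPKM + 1) of each annotated transcript of Reg3b, Reg3g and Il17ra in each of the 20 mice, ordered by group and mouse number. The coding form of Reg3g stood at 122 to 197 FPKM in mice 23, 44, 52 and 35 and at 16.8 FPKM in mouse 36, and was at or near 0 in the other 15, of which mice 30, 33 and 15 had the retained-intron form at 0.604 FPKM or more.

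The other genes of the pathways, and the cell markers below, were read from lists written with earlier results of these data known. Over all 15812 genes tested, 2596 rose and 1143 fell at the same threshold. The measured ligands other than the 9 genes (Il12b, Il17b, Il17c, Il17d, Il25, Iltifb, Il19 and Il24) were too low for any to enter the fit. Il17c lay at 0 to 0.245 FPKM in Control and 0.271 to 1.894 FPKM in AOM/DSS mice, without overlap. Il17d went the other way in mean, from 0.539 ± 0.154 to 0.294 ± 0.128 FPKM (SD, n = 5). Neither difference was tested. Of 6 other receptor genes that entered the fit, 2 fell and 0 rose (median log2 difference -0.21, against 0.09 over all genes). Both encode IL-17 receptor chains of epithelium. Il17rc, the partner chain of the Il17ra product, went from 45.8 ± 10.1 to 24.6 ± 3.91 FPKM (SD, n = 5; limma adjusted p = 0.00408), and Il17re, part of the IL-17C receptor, from 6.20 ± 1.59 to 3.37 ± 1.20 FPKM (SD, n = 5; limma adjusted p = 0.0452). The receptor genes Il23r, Il20ra and Il12rb1 were too low to enter the fit. Il23r lay at 0 to 0.044 FPKM in Control and 0.083 to 0.261 FPKM in AOM/DSS mice, without overlap. Il20ra lay at 0 to 0.058 and 0.141 to 0.572 FPKM, also without overlap. Il12rb1 overlapped, at 0.138 to 0.566 and 0.205 to 1.197 FPKM, and these differences were not tested. Of 13 signalling genes and transcription factors tested, 7 rose and 0 fell (median 0.49). Largest among them were Socs3, the feedback inhibitor of STAT3 (2.45, from 5.58 ± 2.62 to 33.4 ± 8.62 FPKM, SD, n = 5), Zc3h12a, an RNase that limits IL-17 signalling (1.39), Irf4 (0.77) and Batf (0.69), which take part in T helper 17 differentiation, and these 4 values are log2 differences called by limma.

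Genes known to be induced by IL-17 or IL-22 moved more. Of 14 IL-17 targets tested, 10 rose and 0 fell, with a median log2 difference of 3.03 against 0.09 over all genes. Among all 15812 genes tested, 2596 rose and 1143 fell. Of 15 IL-22 targets tested, 11 rose and 0 fell (median 1.87). The most abundant gene of each list in Control mice was lower with AOM/DSS but not called. Pigr, an IL-17 target, went from 1197 ± 218 to 912 ± 148 FPKM (SD, n = 5; log2 difference -0.39, limma adjusted p = 0.101). Saa1, an IL-22 target, went from 725 ± 328 to 436 ± 144 FPKM (SD, n = 5; log2 difference -0.69, limma adjusted p = 0.108). The lists share Lcn2, S100a8 and S100a9. Cxcl2, one of the IL-17 targets that rose, did not exceed 0.126 FPKM in Control mice. It entered the fit only through the AOM/DSS mice. By log2 difference, the 4 largest rises of the IL-17 targets were those of S100a9 (5.29) and S100a8 (5.21), which form calprotectin, of Lcn2 (5.13), which sequesters bacterial siderophores, and of Cxcl5 (4.64), a chemokine for neutrophils. Lcn2 went from 2.01 ± 1.06 FPKM in the Control group to 112 ± 53.3 FPKM with AOM/DSS (SD, n = 5 each). Cxcl5 was at 2.64 ± 2.88 and 73.1 ± 18.1 FPKM (SD, n = 5). Lrg1, a secreted glycoprotein among the IL-22 targets, rose from 3.93 ± 2.92 to 87.5 ± 45.5 FPKM (SD, n = 5), a log2 difference of 4.18.

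**Figure D3:**
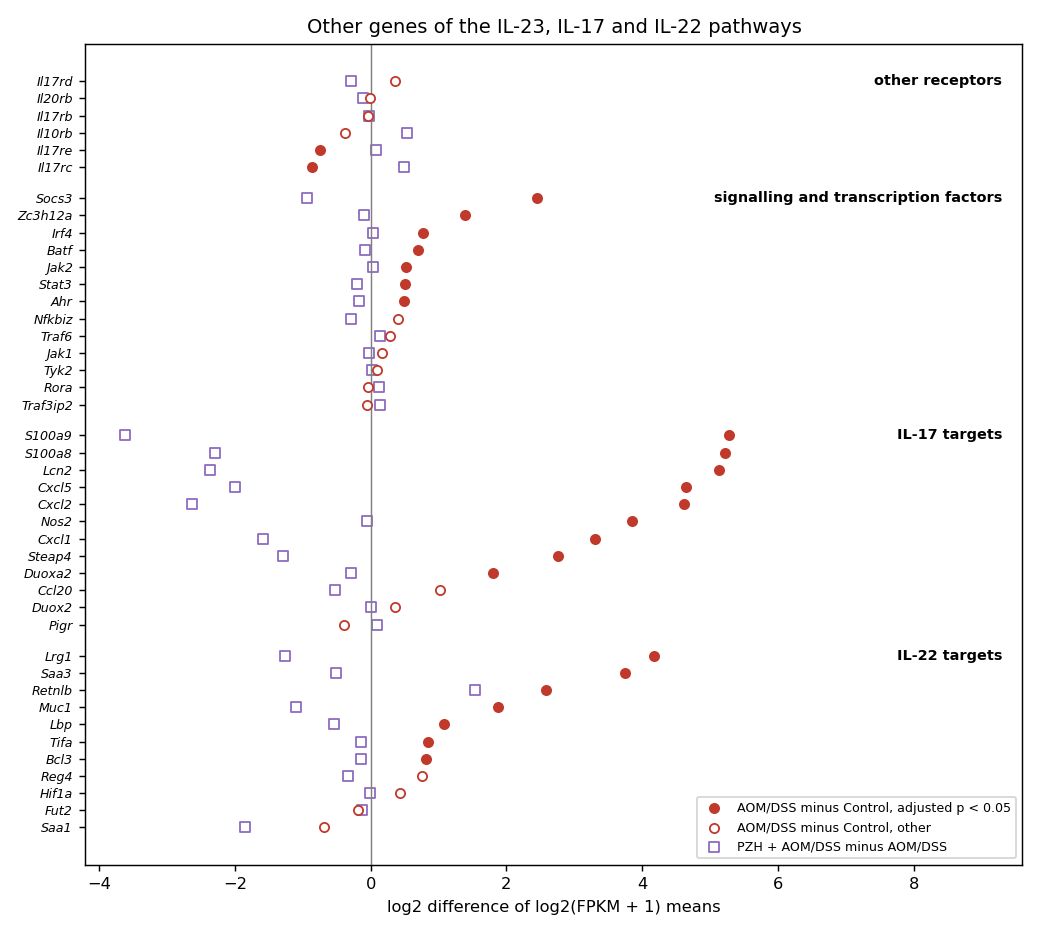
Red circles give the log2 difference of AOM/DSS minus Control for each pathway gene tested, filled where the limma adjusted p was under 0.05, and violet squares give PZH + AOM/DSS minus AOM/DSS, with a gene on several lists drawn once. Filled circles lie to the right of 0 for all called targets and signalling genes and to the left for Il17rc and Il17re, and no square was called.

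Markers of the cells that make or answer these cytokines moved in the same comparison, in which 2596 of 15812 genes tested rose and 1143 fell. Of 9 lymphoid source markers tested, 5 rose and 0 fell, with summed levels of 10.7 to 25.6 FPKM in Control and 21.7 to 41.7 FPKM in AOM/DSS mice. Of 12 markers of dendritic cells and macrophages, 8 rose and 0 fell (64.1 to 89.8 against 123 to 161 FPKM). Of 7 neutrophil genes tested, Cxcr2, Mmp8, Mmp9, S100a8 and S100a9 rose (82.3 to 411 against 246 to 639 FPKM for the list), and the last 2 are in the target lists too. Ly6g, the most abundant gene of this list in Control mice, did not pass the test and went from 176 ± 113 to 104 ± 26.5 FPKM (SD, n = 5; log2 difference -0.58, limma adjusted p = 0.264). All 10 genes of Paneth-like secretory cells, which also make Reg3 lectins, rose, from summed levels of 42.7 to 96.5 FPKM to 1710 to 6146 FPKM, with Mmp7, Defa24, Defa17 and Defa22 listed at 0 in every Control mouse. Mmp7, Defa24, Defa17, Defa22, Defa20 and Habp2 did not exceed 0.304 FPKM in Control mice and entered the fit only through the AOM/DSS mice. The same holds for the neutrophil genes Cxcr2 and Mmp8, at up to 0.381 and 0.025 FPKM in Control mice. Of the colon markers, 4 of 10 fell, of 9 epithelial markers 2 fell, and of 10 muscle and vessel genes 6 fell and 2 rose. The part of these cells in the changes of the 9 genes was not tested.

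The second comparison asked what PZH did in mice without AOM/DSS. Over all genes, 1 of 15506 (0.00645%) was called, and it was none of the 9, while the groups did not overlap in 1.81% of genes and in none of the 9. Il23a was at 0.078, 0.23, 0.215, 0.323 and 0.108 FPKM in PZH mice 8, 14, 27, 46 and 53 (log2 difference from Control 0.08, exact permutation p = 0.325). Il17a did not exceed 0.158 FPKM, Il22 was listed at 0 in 4 of 5 mice, Reg3b did not exceed 0.069 FPKM and Reg3g 0.091 FPKM, all close to the Control range. Il17f was lower in mean, at a median of 0.099 FPKM (0 to 0.208), but the ranges overlapped (log2 difference -0.15, exact permutation p = 0.0952). For the receptors the 95% intervals of the log2 difference were -0.50 to 0.18 for Il22ra1, -0.72 to 1.11 for Il22ra2 and -0.39 to 0.47 for Il17ra (limma adjusted p = 0.778, 0.908 and 0.964). No gene of the 5 pathway lists was called by limma here, and at an unadjusted p under 0.05 it found 2 of 13 signalling genes, 3 of 12 IL-17 targets and 1 of 14 IL-22 targets, all higher, where 4.34% of all genes were higher at that p. Zc3h12a counts in both the signalling genes and the IL-17 targets. The summed Paneth-like genes reached 58.9 to 2160 FPKM in PZH mice, with Mmp7, Defa17 and Defa22 listed at 0 in all 5. Most of that sum was Ang4, at up to 2095 FPKM, and Lyz1 was at 5.13 ± 3.35 FPKM in PZH mice (SD, n = 5).

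The third comparison asked what PZH did in mice given AOM/DSS. Il23a was lower with PZH in 4 of 5 mice, but no difference of the 9 genes passed the adjusted test with all 10 mice. Over all genes, 1 of 15888 (0.00629%) was called and 1.08% did not overlap. Il23a was at 0.289, 0.253, 1.58, 3.62 and 0.737 FPKM in PZH + AOM/DSS mice 2, 13, 15, 35 and 36. Mice 2, 13, 15 and 36 lay below every AOM/DSS mouse, and mouse 35 lay above AOM/DSS mice 30 and 33. The log2 difference was -1.62 (SE 0.38, 95% interval -2.46 to -0.77), with an unadjusted limma p of 0.0015, an adjusted p of 0.356 and an exact permutation p of 0.0238.

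The adjusted result of Il23a changed with mouse 35 and with the model. Without that mouse, the log2 difference of Il23a was -1.92 with a limma adjusted p of 0.0113, and 807 genes in place of 1 were called. Leaving out any other mouse gave adjusted p-values of 0.338 to 0.61. With all 20 mice in one limma model the adjusted p was 0.0346, and with limma weights per mouse it was 0.0654. The difference itself between the PZH effects with and without AOM/DSS was -1.70 (SE 0.41, limma adjusted p = 0.331). Over the 16936 genes of this test, 0.0118% were called by limma. Shuffling PZH labels within the mice with AOM/DSS and within those without gave an exact permutation p of 0.00737. That p tests for no PZH effect in either set of mice, not for equal effects. Without mouse 35 the difference between the effects was -2.002 with a limma adjusted p of 0.00231. Mouse 35 also had the lowest summed colon markers of all 20 mice (1836 FPKM) and summed Paneth-like genes of 4755 FPKM, within the AOM/DSS range. The part of these in its Il23a level was not tested.

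Il17a was at 0.303, 0, 0.677, 1.41 and 0.258 FPKM in the PZH + AOM/DSS mice, and mouse 35 was the highest of all 20 mice. The log2 difference from AOM/DSS was -0.23 (95% interval -0.78 to 0.32, limma adjusted p = 0.735). Il22 was at 0.174, 0, 1.78, 0.232 and 0 FPKM, so mouse 15 had the highest value of the series and 2 mice were listed at 0 (exact permutation p = 0.992). Il17f had a median of 0.194 FPKM (0.097 to 0.438), within the AOM/DSS range except for mouse 13 (exact permutation p = 0.135).

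Reg3b was at 1.12, 0.091, 127, 140 and 1.91 FPKM and Reg3g at 0.139, 0.014, 1.74, 198 and 17 FPKM in PZH + AOM/DSS mice 2, 13, 15, 35 and 36. Mice 2 and 13 were at low levels for both, mouse 35 had the highest Reg3b and Reg3g of all 20 mice, and mouse 15 was high for Reg3b. The log2 differences from AOM/DSS were -0.98 for Reg3b (95% interval -4.60 to 2.64, limma adjusted p = 0.847) and -1.90 for Reg3g (95% interval -6.00 to 2.19, limma adjusted p = 0.709). Both intervals hold large falls and rises. The summed Paneth-like genes were at 2005 and 4755 FPKM in mice 15 and 35 and at 155 to 258 FPKM in mice 2, 13 and 36. Within this group they were high in the same mice as Reg3b. In AOM/DSS mice 23, 30, 33, 44 and 52 they were at 3190, 1710, 2108.5, 4618 and 6146 FPKM. Reg3b was at 88.4, 0.392, 26.2, 11.4 and 85.2 FPKM in those mice. In PZH mice Reg3b did not exceed 0.069 FPKM, with summed Paneth-like genes at up to 2160 FPKM. The relation was not tested.

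The receptors differed little between the AOM/DSS groups in mean. Il22ra1 was at 5.10, 12.9, 3.26, 6.004 and 6.46 FPKM with PZH, with mouse 13 highest as mouse 30 had been without it, and both of these mice were the lowest of their group for Reg3b. The log2 differences were -0.06 for Il22ra1 (95% interval -0.95 to 0.82), -0.28 for Il22ra2 (-0.94 to 0.37) and 0.06 for Il17ra (-0.87 to 0.99), with limma adjusted p-values of 0.967, 0.73 and 0.974. Il17ra varied most in this group, from 0.509 FPKM in mouse 15 to 6.14 FPKM in mouse 35.

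Of the pathway lists none had a gene called by limma in this comparison, and at an unadjusted p under 0.05, 7 of 14 IL-17 targets, 6 of 15 IL-22 targets, 2 of 13 signalling genes and 1 of 7 other receptor genes were lower and 0 higher, where 8.21% of all genes were lower and 3.51% higher at that p. Lcn2, S100a8 and S100a9 count in both target lists, and Socs3 in the IL-22 targets and the signalling genes. The median log2 difference was -0.90 for the 14 IL-17 targets and -0.55 for 15 IL-22 targets, against -0.04 over all genes. Lcn2 had 35.2 ± 45.1 FPKM (SD, n = 5) with PZH (log2 difference -2.36, SE 0.77, limma adjusted p = 0.356), and Cxcl5 had 26.5 ± 25.0 FPKM (SD, n = 5; -1.99, SE 0.64, limma adjusted p = 0.356). S100a8 and S100a9 differed by -2.29 and -3.62 and Lrg1 by -1.26, and Socs3 by -0.94, none of them called. Zc3h12a, Irf4 and Batf differed by -0.10, 0.04 and -0.08. Neutrophil genes summed to 151 to 372 FPKM in these mice against 246 to 639 FPKM in AOM/DSS mice, with a median difference of -1.20 over the 7 tested. Ly6g, the most abundant of them with PZH, was at 146 ± 53.2 FPKM in these mice (SD, n = 5), a log2 difference of 0.44 from AOM/DSS mice (limma adjusted p = 0.50).

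**Figure D4:**
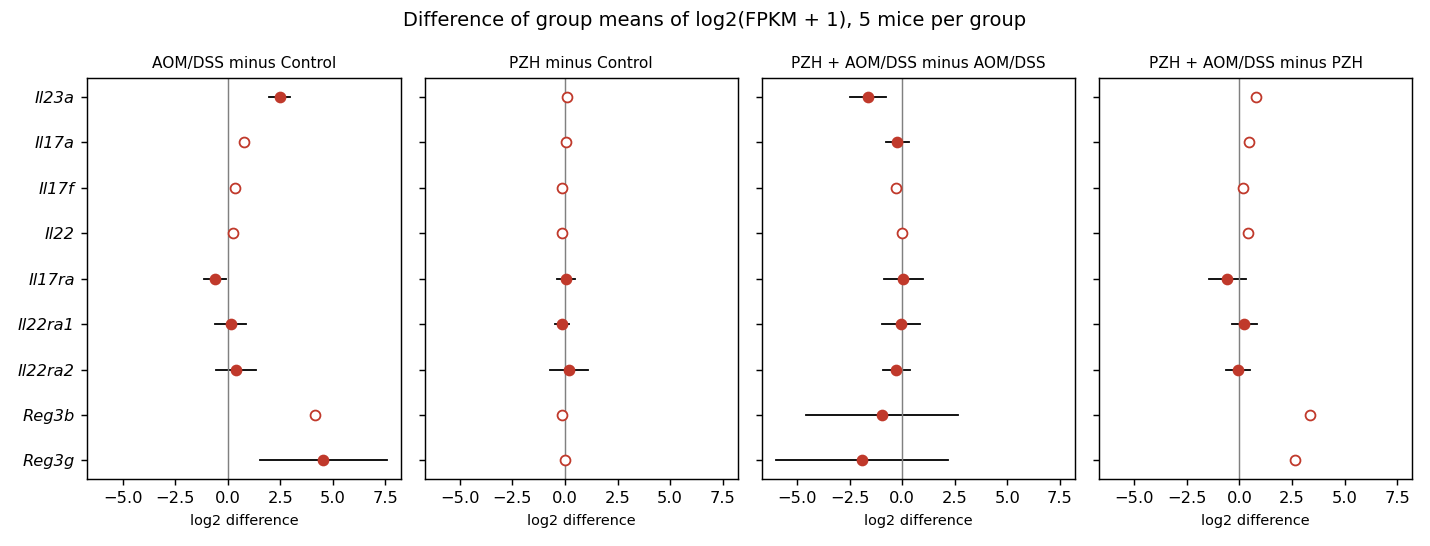
Points give the difference of group means of log2(FPKM + 1) for each gene in 4 comparisons of 5 mice with 5, and lines give the 95% interval from limma. Open points are genes that did not enter the fit and have no interval. Il23a lies at 2.47 in the AOM/DSS panel and at -1.62 in the PZH + AOM/DSS panel, and the Reg3 intervals in the latter cross 0.

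The last comparison set PZH + AOM/DSS against PZH, which is the effect of AOM/DSS in mice that received PZH. Over all genes, 378 of 15636 (2.42%) were called, and 7.37% did not overlap. Reg3b did not overlap between these groups (log2 difference 3.35, exact permutation p = 0.00794), although mouse 13, at 0.091 FPKM, was barely above the highest PZH mouse, at 0.069 FPKM. The differences were 0.77 for Il23a (exact permutation p = 0.0317), 0.47 for Il17a (p = 0.0476 in the exact permutation test) and 2.63 for Reg3g (exact permutation p = 0.0476), with overlap in each. These p-values are unadjusted, and with no filter on low values none of the 4 genes passed limma's adjusted test (adjusted p from 0.307 to 0.402). All 4 exact permutation p-values rose above 0.05 when any PZH mouse was left out, reaching 0.0794 for Il23a, 0.111 for Il17a, 0.0952 for Reg3b and 0.175 for Reg3g. Leaving out a PZH mouse makes the groups unequal in size. Shuffles that put the high values in the smaller group can then exceed the observed difference. These rises thus do not show that the results hang on single PZH mice. The log2 differences without a PZH mouse stayed at 0.73 to 0.80 for Il23a and 2.62 to 2.65 for Reg3g. The exact permutation p of Il17a also rose above 0.05 without mouse 15 or mouse 35. Without mouse 35 the log2 differences were 0.47 for Il23a, 0.29 for Il17a and 1.40 for Reg3g. With the coding transcript alone, Reg3g gave an exact permutation p of 0.444. Il17f, Il22 and the receptors did not pass their tests. Of 13 IL-17 targets tested, 5 rose, which were Cxcl1, Cxcl5, Duoxa2, Nos2 and Zc3h12a, and of 14 IL-22 targets 1 rose, Lbp. Of 13 signalling genes, Stat3 and Zc3h12a rose. The PZH + AOM/DSS mice are those of the third comparison, so the comparisons are not independent.

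Ordered by median, Il23a was highest in AOM/DSS mice (5.75 FPKM), then PZH + AOM/DSS (0.737), PZH (0.215) and Control (0.090), and PZH and Control did not differ beyond their spread. For Il17a the order was AOM/DSS (0.727), PZH + AOM/DSS (0.303), PZH (0.052) and Control (0), in which each group overlapped the next. By mean FPKM among the 9 genes, Il22ra1 ranked first in Control and PZH mice, Reg3g in AOM/DSS mice and Reg3b in PZH + AOM/DSS mice. In the last group the median of Reg3b was 1.905 FPKM, below the median of 6.004 FPKM of Il22ra1.

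Genes of like pattern were sought among 14134 genes by Pearson's r of log2(FPKM + 1) over the 20 mice, which share the group differences. For Il23a the 3 highest were Gm11978 (r = 0.986, and 0.945 after subtracting group means), Erich3 (0.985 and 0.921) and Trem1 (0.984 and 0.918), the last a receptor of neutrophils and monocytes. For Il17a they were Hdac2 (0.956 and 0.938), Nono (0.953 and 0.902) and Defa33 (0.937 and 0.922). For Reg3b they were Rsl1d1 (0.933 and 0.888), Eif2s1 (0.929 and 0.853) and Tomm70a (0.926 and 0.843), and for Reg3g Tmem45a (0.920 and 0.882), Sox17 (0.916 and 0.851) and Tbx3os2 (0.915 and 0.903). The receptors had weaker best matches, Sfrp2 for Il22ra1 (0.728 and 0.817), Cd27, a lymphocyte receptor, for Il22ra2 (0.767 and 0.778) and Dcp1b for Il17ra (0.766 and 0.683). Next came Foxj2 (0.727) and Cln8 (0.686) for Il22ra1, Dse (0.757) and Gimap8 (0.736) for Il22ra2, and Gm47297 (0.744) and Gm13597 (0.741) for Il17ra. Il17f and Il22 were too low for this search. These are descriptions across 20 mice, chosen as the highest of many values.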

How the data were processed

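Colon RNA of 20 mice, 5 per group, was sequenced after rRNA depletion. The authors filtered reads with FastQC and NGSQC, aligned them to mm10 with HISAT2 and assembled and quantified transcripts with StringTie. The deposited values are FPKM for 118434 transcripts per mouse, without counts, so depth was estimated from the step size of low values. Between 42.2 and 47.1% of low values lay on whole steps (within 0.02 of a step), so counts were not recovered and no count test was used. Tools used for calls by the authors were not rerun. The paper names DESeq for its calls of transcripts, while the submitters' processing notes name limma.

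FPKM were summed over the 96032 Ensembl transcripts found in GENCODE M21. The 22252 assembled transcripts, and 150 Ensembl transcripts missing from that release, were left out. Log2(FPKM + 1) was compared with limma 3.58.1 (R 4.3.3) with an intensity trend, the 10 mice compared (20 for the interaction) and no covariates, for genes with at least 0.5 FPKM in at least 5 mice. P-values were adjusted by Benjamini-Hochberg over all genes tested and called under 0.05. Other genes were compared by exact two-sided permutation tests, unadjusted. The method was tested on simulated data. Alternatives were another scaling, a pseudocount of 0.1, no filter or a stricter one, all 20 mice in one model, weights per mouse, single transcripts, leaving out each mouse (with the genes tested held fixed) and, added after seeing the data, no intensity trend. Labels name no batches. P-values measure the spread between these mice.

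The 9 genes, gene lists and tests were chosen with earlier results of these data known. All 9 genes were named, with up to 4 called genes per pathway list by size in AOM/DSS against Control and the 3 genes of highest correlation; others were named after their values were seen. Il20, Reg2, Cpa1 and Amy2a5 of the lists were not used here, and a further gene of the lists is not reported here. Promoters came from RefSeq (GRCm38.p6), and 2 of 2 matched by symbol. Proteins were not analysed here.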

Additional observations from a re-analysis of the deposited data

Results flagged for a closer look

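The values of each gene in each group of 5 mice were searched for a single mouse far from the others, by the gap to its nearest neighbour against the range of the group. Of 36 groups, 4 were found, and chance gives about 1.8 for normally spread values. A group with 4 mice listed at 0 and a single mouse above it is always found, so that number does not apply to such groups. Il17a in Control mouse 37 was at 0.093 FPKM with the other 4 listed at 0. Il22 in PZH mouse 8 was at 0.055 FPKM, again with the others listed at 0, and both values are no more than a few fragments. Il22 in PZH + AOM/DSS mouse 15 was at 1.785 FPKM, with the next mouse at 0.232 FPKM. Il22ra1 in AOM/DSS mouse 30 was at 18.807 FPKM, with the next at 5.65 FPKM.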

How the results depend on the processing

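Most differences of single genes kept their direction and side of the threshold, and the exceptions are given here or beside the result, with the counts of calls. Of AOM/DSS against Control, 2 of the 9 genes were called, and 1 under the stricter filter and with single transcripts, where Reg3g was not tested, and 1 to 2 when a mouse was left out, with Il22ra1 between -0.21 and 0.28 and 2789 to 3588 genes called. Of PZH against Control, 1 gene of all was called, 0 with all 20 mice in one model and 1 to 2 when a mouse was left out. Its log2 differences turned to -0.0091 for Il17ra with weights per mouse and to 0 for Reg3g with its single transcript, and ranged from -0.0813 to 0.144 for Il17ra, -0.076 to 0.426 for Il22ra2 and -5e-04 to 0.031 for Reg3g without single mice. Of PZH + AOM/DSS against AOM/DSS, 1 gene was called, 0 without the filter, 89 with all 20 mice, 2 with weights and 1 to 807 without single mice, and of the 9 genes 0, 1 with all 20 mice and 0 to 1 without single mice, in both cases Il23a. Il17ra turned to -0.0438 with a pseudocount of 0.1 and Il22ra1 to 0.0431 with weights, and without single mice Il17ra ranged from -0.21 to 0.35, Il22ra1 from -0.30 to 0.29 and Il22 from -0.27 to 0.10. Of PZH + AOM/DSS against PZH, 378 genes were called, 90 without the filter, 1002 with all 20 mice and 52 to 400 without single mice, where Il22ra2 ranged from -0.292 to 0.0513 and Il22ra1 from -0.0037 to 0.42. The interaction called 2 genes, 0 with a pseudocount of 0.1 or no filter, 130 with weights and 0 to 492 without single mice, and of the 9 genes 0, 1 with weights (Il23a, limma adjusted p = 0.0341) and 0 to 1 without single mice. With a pseudocount of 0.1 it turned to 0.0114 for Il17f and -0.0943 for Il17ra, and without single mice Il17ra ranged from -0.25 to 0.31, Il22ra1 from -0.15 to 0.44 and Il22 from -0.14 to 0.23. In exact permutation tests, Il17f passed 0.05 without AOM/DSS mouse 44 (p = 0.0159 against Control and 0.0397 against PZH + AOM/DSS) and without PZH mouse 27 (0.0238 for PZH against Control), and Il22 without PZH + AOM/DSS mouse 13 or 36 (0.0476 against PZH), while with a pseudocount of 0.1 Il17a of the last comparison gave 0.0635. The cause of these shifts was not tested. Low levels limit Il17a, Il17f and Il22 to a few fragments in most mice. No paired analysis was possible because the groups share no mouse numbers.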

Other observations

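Further values, chosen after they were seen, belong to no comparison above. Retnlb, a goblet cell lectin in the IL-22 target list, had a median of 171 FPKM (5.07 to 538) in PZH mice against 2.51 FPKM (0.615 to 6.44) in Control mice, with overlap of the ranges. Its log2 difference was 5.11 (SE 1.04), with a limma adjusted p of 0.378 and an unadjusted p of 4.96e-04. Ang4, a bactericidal ribonuclease of the Paneth-like list, had a median of 335 FPKM (4.63 to 2095) in PZH and 3.61 FPKM (0.517 to 52.8) in Control mice (limma adjusted p = 0.437). In AOM/DSS mice Retnlb was at a median of 11.2 FPKM and Ang4 at 161 FPKM.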
